A study of Homo sapiens with 12 samples.

Results

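The polyamine genes described here are ODC1, AMD1, SRM and SMS, which encode the enzymes that make polyamines, OAZ1, OAZ2 and AZIN1, which control the first of these enzymes, and SAT1, SMOX and PAOX, which encode enzymes that break polyamines down. They were chosen by name for these roles, with earlier results of these data known, and all 10 were found among the 23434 rows of the count table. Related genes such as OAZ3 and AZIN2 were kept in a separate list of paralogs. RNA made during a short pulse of 5-ethynyl-uridine (EU) was captured and sequenced (EU-seq) from U2OS cells, a human osteosarcoma line, here with a transgene for MycER, a fusion of Myc with a portion of the estrogen receptor. Each of 4 groups had 3 libraries. The shNT group carried a non-targeting short hairpin RNA (shRNA), the shNT_OHT group carried the same shRNA and received 4-hydroxytamoxifen (OHT), the ligand that activates MycER, at 300 nM for 40 h, and the shCDK12 and shCDK12_OHT groups carried an shRNA against the transcriptional kinase CDK12, without and with the same OHT treatment. All 4 groups also received doxycycline at 1 µg/mL, nocodazole at 100 ng/mL for 8 h with recovery of mitotic cells by shaking, a release of 12 h, and EU at 0.5 mM in the last 2 h. The labels name 1 line and do not state whether the replicates were separate cultures, so the p-values measure only the spread between these samples.

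Polyamines (putrescine, spermidine and spermine) are small cations that bind nucleic acids, and growing cells need them. Ornithine decarboxylase (ODC1) makes putrescine from ornithine, S-adenosylmethionine decarboxylase (AMD1) supplies the aminopropyl group, and spermidine synthase (SRM) and spermine synthase (SMS) add it. Antizymes (OAZ1, OAZ2) bind the decarboxylase and send it to the proteasome, the antizyme inhibitor (AZIN1) takes antizyme away from it, and ODC1 is a textbook target gene of Myc.

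The stretches below are shown because ODC1 and SRM are classical Myc targets and because AMD1 was the other synthesis gene with a large difference between the groups. Each is from RefSeq, build GRCh38.p14, while the counts were made on hg19. The capitals mark CACGTG, the core of the E-box that Myc with Max binds, or CACGCGTG, a run that holds the variant CACGCG on both strands. The first ODC1 stretch, chr2:10448328-10448577 on the minus strand, ends just before the first base of the gene. The second, chr2:10447997-10448120 on the minus strand, lies in intron 1 of the canonical ODC1 transcript and runs into the first exon of shorter transcripts that start further in. The SRM stretch is chr1:11060019-11060268 on the minus strand and the AMD1 stretch is chr6:110874535-110874784 on the plus strand, each ending before an annotated start.
ODC1 first start: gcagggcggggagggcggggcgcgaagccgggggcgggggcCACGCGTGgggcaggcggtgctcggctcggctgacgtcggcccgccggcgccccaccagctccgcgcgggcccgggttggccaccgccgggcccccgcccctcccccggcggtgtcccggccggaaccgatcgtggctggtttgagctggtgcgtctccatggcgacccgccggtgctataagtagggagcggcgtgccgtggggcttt
ODC1 downstream start: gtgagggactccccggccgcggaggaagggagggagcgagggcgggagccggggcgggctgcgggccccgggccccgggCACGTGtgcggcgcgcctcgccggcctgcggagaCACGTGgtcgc
SRM: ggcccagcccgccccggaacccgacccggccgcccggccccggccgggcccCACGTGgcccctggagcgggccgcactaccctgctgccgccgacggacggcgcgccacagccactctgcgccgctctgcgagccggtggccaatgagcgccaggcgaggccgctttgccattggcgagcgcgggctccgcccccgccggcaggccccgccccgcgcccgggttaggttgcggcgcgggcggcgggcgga
AMD1: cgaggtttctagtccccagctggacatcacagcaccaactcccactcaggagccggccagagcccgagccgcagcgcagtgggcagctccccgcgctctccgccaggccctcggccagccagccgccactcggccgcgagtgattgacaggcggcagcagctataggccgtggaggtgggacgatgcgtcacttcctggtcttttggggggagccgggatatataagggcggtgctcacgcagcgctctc

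Windows of 250 bases before to 50 bases after a start were at hand for 7 of the 10 genes, 10 windows in all. ODC1 and AMD1 had more than 1 window each, and 2 of AMD1, from chr6:110874534 and chr6:110874535, are nearly the same stretch. The 10 windows are therefore not separate promoters. CACGTG, which reads the same on both strands, was present in 2 of these 10 windows, 1 of ODC1 and 1 of SRM, and in 7.26% of 35116 windows of all genes. CACGCG, searched on both strands, was in 1 of the 10, the first window of ODC1, and in 11.4% of all windows. The 2 matches in the second ODC1 stretch are at chr2:10448036-10448041 and chr2:10448002-10448007. These are matches of letters, and binding was not measured here.

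Total counts ranged from 1251695 in shNT_OHT replicate 2 to 10447836, an 8.35-fold range, and the shNT and shNT_OHT groups were the shallowest. Without OHT, the targeted gene was not called lower under its shRNA. CDK12 was at 289 to 323 CPM (counts scaled to a fixed library total with TMM factors over all libraries) in shNT. It was at 277 to 298 CPM in the libraries labelled shCDK12, a log2 fold change of -0.08 (edgeR, adjusted p = 0.447). CDK12 was lower in the libraries labelled shCDK12_OHT, at 208 to 218 CPM, than in shNT_OHT, at 356 to 434 CPM, by -0.88 on the log2 scale (adjusted p = 0.00011). With OHT, CDK12 was called higher in shNT (0.38, adjusted p = 0.0352) and lower in the libraries labelled shCDK12_OHT than in those labelled shCDK12 (-0.44, adjusted p = 9.5e-05). The call in shNT was lost without any 1 shNT library or without shNT_OHT replicate 3 (adjusted p from 0.0863 to 0.197). The assay reads RNA made in the pulse, and whether an effect of the shRNA on mature RNA would show in it was not tested. The groups are therefore named below as they were labelled. Mesenchymal markers, which an osteosarcoma line should carry, were present in every library, with VIM at 169 to 344 CPM, except COL1A2 at 0 to 1.16 CPM. Of 8 markers of other cell types, KRT8 was at 227 to 386 CPM and the others at no more than 12.2 CPM. The summed CPM of the 7 mesenchymal markers was 1565 to 1654 in shNT, 1032 to 1137 in shNT_OHT, 435 to 445 in the libraries labelled shCDK12 and 618 to 645 in those labelled shCDK12_OHT, and the part of this difference in the results below was not tested.

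Per kilobase of the canonical transcript, ODC1 gave the highest level of the 10 genes in every group, OAZ1 the second and PAOX the lowest. The mean level of ODC1 was 194 ± 10.7 CPM per kb in shNT, 330 ± 36.9 in shNT_OHT, 435 ± 11.4 in the libraries labelled shCDK12 and 239 ± 18.2 in those labelled shCDK12_OHT (SD, n = 3). The matching levels of OAZ1 were 81.8 ± 10.9, 99.9 ± 8.08, 206 ± 10.99 and 182 ± 22.0 CPM per kb. In each of the 4 groups the libraries of ODC1 and OAZ1 did not overlap, nor did those of OAZ1 and the gene next below it. The other 7 genes above PAOX lay between 9.74 and 91.9 CPM per kb on average, and the middle of this order changed with the group. In shNT the order was OAZ2, AMD1, SAT1, SRM, AZIN1, SMOX and SMS, with overlapping libraries for AMD1 and SAT1, SAT1 and SRM, and SMOX and SMS. In shNT_OHT all 6 neighbouring pairs from SRM down to SMOX overlapped. In the libraries labelled shCDK12, AMD1 and SAT1 followed OAZ1, clear of their neighbours, and in those labelled shCDK12_OHT, SAT1 followed OAZ1 and SRM stood below SMOX, overlapping it. EU-labelled RNA can hold introns that a transcript length leaves out, so these levels are approximate between genes.

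**Figure D1:**
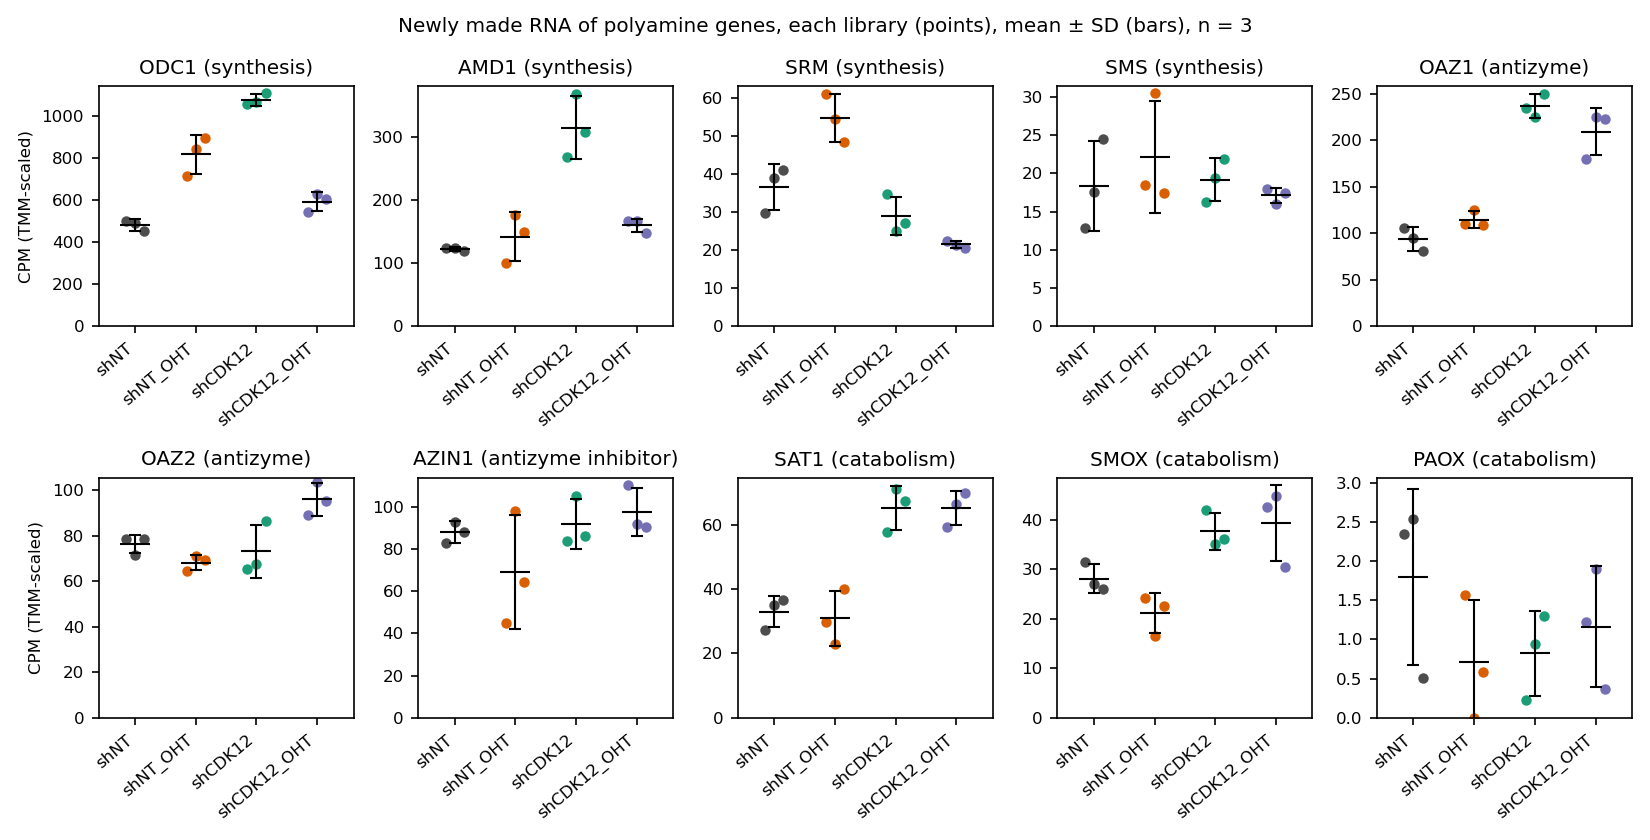
TMM-scaled CPM (vertical axis, from 0, a different range in each panel) of the 10 polyamine genes in the 4 groups, with 1 point per library and bars at the mean ± SD (n = 3). ODC1 rises from 451 to 499 in shNT to 716 to 894 in shNT_OHT, and falls from 1056 to 1109 in the libraries labelled shCDK12 to 542 to 630 in those labelled shCDK12_OHT.

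The first question was what MycER activation did to newly made RNA of these genes in cells with the non-targeting shRNA. ODC1 was the only member that passed the edgeR test, and it rose 1.69-fold. SRM was higher by 0.58 on the log2 scale without passing, and 0 members passed as lower (0 also at an unadjusted p under 0.05, and 0 with DESeq2). Thus 1 of the 9 members tested was called at an adjusted p under 0.05, and 17.3% of the 10272 genes tested were called, 9.05% higher and 8.29% lower. The median log2 fold change of the 9 was 0.19, against -0.03 over all genes.

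ODC1, the rate-limiting enzyme of the pathway, had 499, 493 and 451 CPM in the 3 shNT libraries and 716, 841 and 894 CPM in the 3 shNT_OHT libraries. The 3 shNT_OHT libraries were all above the 3 shNT libraries. The log2 fold change was 0.76 with a standard error (SE) of 0.11 and an adjusted p of 0.00046 (edgeR quasi-likelihood test), and the call held when any 1 library was left out, at an adjusted p of at most 0.0074. SRM, which turns putrescine into spermidine, had 29.7, 39.0 and 41.1 CPM in shNT and 61.1, 54.4 and 48.4 CPM in shNT_OHT. These groups did not overlap either, and the log2 fold change was 0.58 (SE 0.20, adjusted p = 0.0567). SRM sat close to the threshold: DESeq2 gave an adjusted p of 0.0429 and upper-quartile normalization 0.0428. Thinning every library to the smallest total gave 0.0279 (log2 0.76) and 1 fit of all 12 libraries 0.0168 (log2 0.59). The highest adjusted p under a change of processing was 0.0731. The fit without shNT_OHT replicate 2 gave 0.0497, while the adjusted p rose to 0.251, at a log2 fold change of 0.45, without shNT replicate 1. AMD1 had 123, 124 and 119 CPM in shNT and 100, 176 and 150 CPM in shNT_OHT. The shNT_OHT libraries of AMD1 lay on both sides of the shNT ones, with a log2 fold change of 0.19 (SE 0.18, adjusted p = 0.483). Without shNT_OHT replicate 1, the lowest of them, AMD1 was called higher at 0.40 (adjusted p = 0.0151), and without shNT_OHT replicate 2, the highest, it was at 0.06 (adjusted p = 0.816). SMS, the last enzyme of the chain, was at 12.9 to 24.6 CPM in shNT and 17.4 to 30.5 CPM in shNT_OHT, with a 95% interval of the log2 fold change from -0.38 to 0.87.

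Of the regulators, OAZ1 was at 81.2 to 106 CPM in shNT and at 109 to 125 CPM in shNT_OHT, a log2 fold change of 0.27 that did not pass (SE 0.15, adjusted p = 0.224). OAZ2, a second antizyme, was at -0.17 (adjusted p = 0.498). AZIN1, which protects the decarboxylase from antizyme, spread from 44.8 to 98.2 CPM in shNT_OHT, wider than its 82.7 to 93.1 CPM in shNT. Its log2 fold change was -0.40 (adjusted p = 0.224), and -0.66 (adjusted p = 0.0212) without shNT_OHT replicate 2, the library with 98.2 CPM and the smallest total count. Without shNT_OHT replicate 1, the one with 44.8 CPM, it was -0.17 (adjusted p = 0.471). Of the catabolic genes, SAT1, the acetyltransferase that marks polyamines for export or oxidation, was at -0.05 (95% interval -0.51 to 0.41). SMOX, which oxidises spermine to spermidine, was at 26.1 to 31.4 CPM in shNT and 16.5 to 24.1 CPM in shNT_OHT, a log2 fold change of -0.39 (adjusted p = 0.28). In all, 5 members (ODC1, SRM, OAZ1, OAZ2 and SMOX) had no overlap between the groups, and 35.9% of all genes tested had none.

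PAOX, the oxidase of acetylated polyamines, had 79 counts over all 12 libraries and stayed below the filter on low counts. It had 1 to 13 counts per library in shNT and 0 to 5 in shNT_OHT. The 0 fell in shNT_OHT replicate 2, where 3 counts, the limit that a count of 0 allows, are 2.40 CPM before scaling. No difference between groups was detectable for PAOX at this depth, and this limit covers counting error only.

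The next question was how the libraries labelled shCDK12 differed from shNT without OHT. ODC1, AMD1, OAZ1, SAT1 and SMOX were higher in the libraries labelled shCDK12 than in shNT, and 0 were called lower (0 also at an unadjusted p under 0.05, and 0 with DESeq2). The 5 called were 5 of 9 tested, where 62.0% of all 11718 genes tested were called, 29.6% higher and 32.4% lower. The median log2 fold change of the 9 was 0.40, against -0.03 over all genes.

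ODC1 had 1056, 1065 and 1109 CPM in the libraries labelled shCDK12, each more than the highest shNT library, a 2.23-fold difference (log2 1.16, SE 0.07, adjusted p = 1.3e-12). AMD1, which commits S-adenosylmethionine to polyamine synthesis, had 269, 367 and 307 CPM there against 119 to 124 CPM in shNT, 2.57-fold more (log2 1.36, SE 0.10, adjusted p = 2.6e-11). The pair of synthases did not go with them. SRM had 34.7, 25.1 and 27.2 CPM, overlapping its shNT values, at -0.34 (SE 0.17, adjusted p = 0.0943). Without shCDK12 replicate 1, the highest of the 3, SRM was called lower at -0.48 (adjusted p = 0.0237), and without shNT replicate 1 it was called lower at -0.48 (adjusted p = 0.0347). SMS was at 0.12 with a 95% interval from -0.32 to 0.57.

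OAZ1, whose protein opposes ODC1, had 235, 225 and 250 CPM in the libraries labelled shCDK12 against 81.2 to 106 CPM in shNT. This was a 2.49-fold difference with no overlap (log2 1.32, SE 0.10, adjusted p = 2.8e-11). OAZ2 and AZIN1 were at -0.06 and 0.07, neither called. SAT1 had 57.7, 71.0 and 67.4 CPM against 27.4, 35.1 and 36.6 CPM in shNT. All 3 were above every shNT library, and the fold was 2.01 (log2 1.00, SE 0.15, adjusted p = 2.2e-06). SMOX had 41.9, 35.0 and 36.1 CPM against 31.4, 26.9 and 26.1 CPM in shNT, at 0.40 (SE 0.16, adjusted p = 0.0303). The call for SMOX was lost without shCDK12 replicate 1 (adjusted p = 0.101), shCDK12 replicate 3 (0.0530), shNT replicate 2 (0.108) or shNT replicate 3 (0.0777). It was also lost after thinning every library to the smallest total (0.106) and in 1 fit of all 12 libraries (0.0574). The 5 genes called were also the 5 without overlap, a pattern that 64.5% of all genes tested had. Of 8 genes listed for S phase, 4 were called higher and 1 lower in this comparison. Their summed CPM was 1312 to 1425 in the libraries labelled shCDK12 against 1071 to 1211 in shNT. Of 8 genes listed for G2 and mitosis, 3 were called higher and 1 lower, with summed CPM of 1067 to 1105 against 1011 to 1141. The part of these genes in the higher ODC1 and AMD1 was not tested.

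With OHT in both groups, the shCDK12_OHT and shNT_OHT libraries were compared to ask how these genes differed between them under active MycER. ODC1 and SRM were lower in the libraries labelled shCDK12_OHT, and SAT1, OAZ1, SMOX and OAZ2 were higher. Of the 9 members tested 6 were called, with 45.4% of 11668 genes called. The background was 23.8% called higher and 21.6% called lower. The median of the 9 was 0.52, against 0.05 over all genes.

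SRM had 22.4, 21.4 and 20.7 CPM in the libraries labelled shCDK12_OHT against 48.4 to 61.1 CPM in shNT_OHT. The groups were far apart relative to their spread, and SRM was 2.51-fold lower (log2 -1.33, SE 0.17, adjusted p = 0.00013). ODC1 had 542, 630 and 604 CPM against 716, 841 and 894 CPM in shNT_OHT, 1.36-fold lower (log2 -0.44, SE 0.11, adjusted p = 0.0064). AMD1 and SMS were not called, at 0.21 (95% interval -0.13 to 0.56) and -0.28 (-0.74 to 0.19).

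On the breakdown side, SAT1 had 59.4, 66.6 and 69.8 CPM in the libraries labelled shCDK12_OHT and 29.8, 23.1 and 40.0 CPM in shNT_OHT. The fold was 2.06 with no overlap (log2 1.04, SE 0.18, adjusted p = 0.00103). SMOX had 42.7, 44.8 and 30.5 CPM against 24.1, 16.5 and 22.6 CPM, 1.84-fold higher (log2 0.88, SE 0.21, adjusted p = 0.0064). Both antizymes were higher too. OAZ1 had 180, 225 and 223 CPM against 109 to 125 CPM, 1.86-fold higher (log2 0.89, SE 0.13, adjusted p = 0.00032). OAZ2 had 89.0, 104 and 95.4 CPM against 64.5, 70.9 and 69.3 CPM, 1.43-fold higher (log2 0.52, SE 0.13, adjusted p = 0.0068). The OAZ2 call was lost without shCDK12_OHT replicate 2, its highest library (0.46, adjusted p = 0.0533). AZIN1 was at 0.58 (adjusted p = 0.0572), at 0.82 (adjusted p = 0.0045) without shNT_OHT replicate 2 and at 0.35 without shNT_OHT replicate 1, and its adjusted p reached 0.204 without shCDK12_OHT replicate 1. With no filter on low counts AZIN1 was called (adjusted p = 0.0219), as it was in 1 fit of all 12 libraries (0.0158). Its highest adjusted p under a change of processing was 0.184. The 6 genes called did not overlap between the groups, and 55.2% of all genes tested did not. Of the 8 genes of the list for G2 and mitosis, 6 were called lower in this comparison (median -0.91, summed CPM 614 to 670 against 1033 to 1212), and their part in the lower ODC1 and SRM was not tested.

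**Figure D2:**
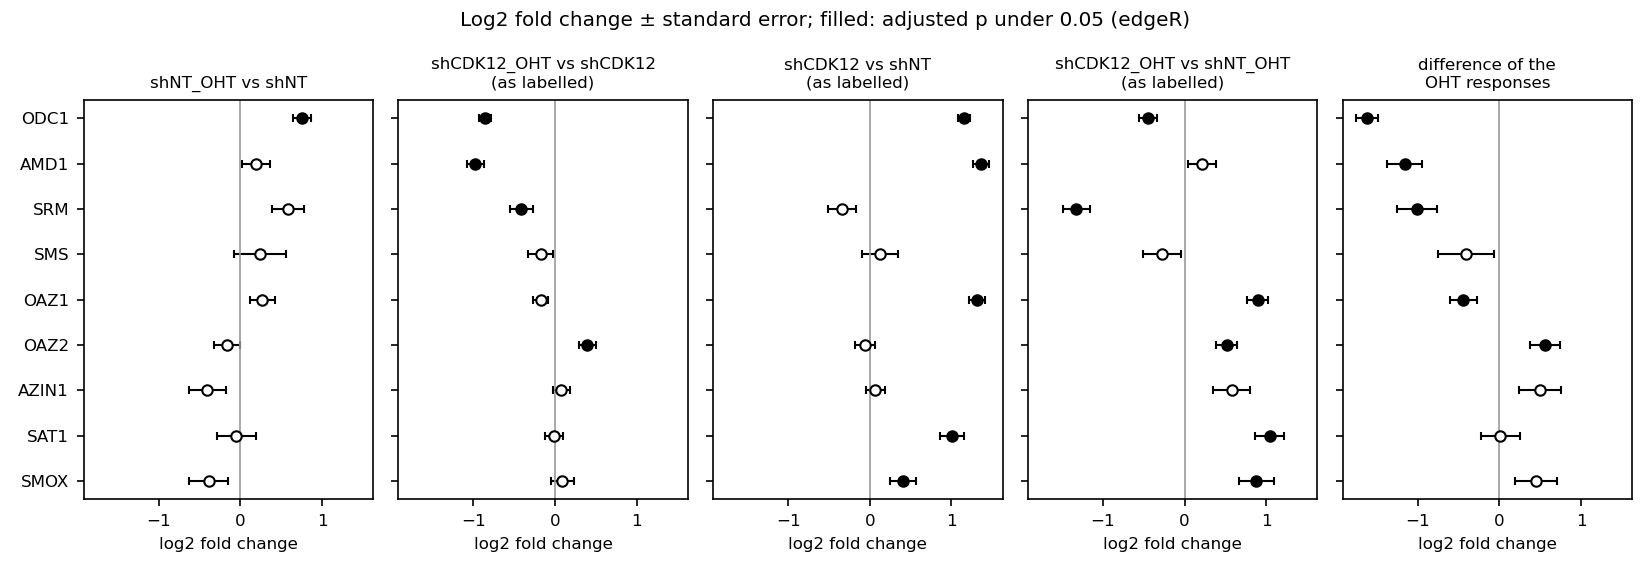
Log2 fold changes (horizontal axis, points with bars of 1 standard error) of the 9 tested polyamine genes in the 4 pairwise comparisons and in the difference of the OHT responses, filled where the adjusted p was under 0.05 (edgeR). ODC1 lies at 0.76 with OHT in shNT and at -0.86 with OHT in the libraries labelled shCDK12, and SAT1 lies at 1.00 and 1.04 in the comparisons of the shRNAs.

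OHT was last compared within the shCDK12 background. ODC1, AMD1 and SRM were lower in the libraries labelled shCDK12_OHT than in those labelled shCDK12, and OAZ2 was higher. Of the 9 tested 4 were called, with 48.9% of 12519 genes called, 27.5% higher and 21.5% lower. That split depends on scaling, with 2767 higher and 2900 lower by DESeq2 and 2959 and 3222 with upper-quartile normalization. The median of the 9 was -0.18, against 0.05 over all genes.

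ODC1 went from 1056 to 1109 CPM without OHT to 542 to 630 CPM with it, 1.82-fold lower (log2 -0.86, SE 0.07, adjusted p = 6.0e-08). AMD1 had 166, 166 and 148 CPM with OHT against 269, 367 and 307 CPM without, 1.97-fold lower (log2 -0.98, SE 0.10, adjusted p = 3.8e-07). For both genes every library with OHT was below every library without it, and both calls held without any 1 library. SRM was at -0.41 (SE 0.15, adjusted p = 0.0265), a call lost without shCDK12 replicate 1 (-0.27, adjusted p = 0.120) or without any 1 of the libraries labelled shCDK12_OHT (adjusted p from 0.0512 to 0.0766). It was also lost after thinning every library to the smallest total (0.137) and in 1 fit of all 12 libraries (0.0579). OAZ2 was higher at 0.40 (SE 0.11, adjusted p = 0.0058). SAT1 and SMOX, both higher than in the shNT groups, were at -0.01 (95% interval -0.22 to 0.19) and 0.09 (-0.19 to 0.36). OAZ1 was at -0.18 with no overlap between the groups (adjusted p = 0.110), and was called lower with DESeq2 (-0.23, adjusted p = 0.0411), with upper-quartile normalization (-0.24, adjusted p = 0.0282) and without shCDK12 replicate 2 (-0.22, adjusted p = 0.0304). Counting OAZ1, 5 members did not overlap, as did not 56.3% of all genes tested.

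Cell cycle genes moved in this comparison as well. All 8 genes of the list for G2 and mitosis were lower with OHT in the libraries labelled shCDK12, and their summed CPM was 614 to 670 there against 1067 to 1105 without OHT. The summed CPM of the 8 S phase genes was 938 to 1009 against 1312 to 1425, with 6 of 8 called lower. Their part in the fall of ODC1 and AMD1 was not tested, and in these bulk samples fewer cells of a type and less RNA per cell cannot be told apart.

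The OHT responses of the 2 shRNA backgrounds were then compared with each other in a fit of all 12 libraries, as the response in the shCDK12 background minus that in shNT. Of the 9 members 5 were called, with 45.2% of 11699 genes called, 25.6% higher and 19.6% lower. ODC1, AMD1 and SRM had lower responses in the shCDK12 background, by log2 differences of -1.62 (SE 0.13, adjusted p = 1.3e-08), -1.16 (adjusted p = 0.00017) and -1.01 (adjusted p = 0.0022). These 3 encode the synthesis enzymes upstream of spermine synthase, and their calls held without any 1 library. OAZ1 was called lower at -0.44 (adjusted p = 0.0374) and OAZ2 higher at 0.56 (adjusted p = 0.0185). The OAZ1 call was lost without 1 of 6 libraries, namely shCDK12 replicates 1 and 3, shCDK12_OHT replicate 1, shNT replicates 2 and 3 and shNT_OHT replicate 2 (adjusted p from 0.0563 to 0.116). The OAZ2 call was lost without shCDK12 replicate 2 (0.0518) or shCDK12_OHT replicate 2 (0.0582), and with upper-quartile normalization (0.44, adjusted p = 0.0572). SMS was at -0.41, SAT1 at 0.01, AZIN1 at 0.50 and SMOX at 0.45, none called. AZIN1 was called without shNT_OHT replicate 2 (0.77, adjusted p = 0.0049) and with no filter on low counts (0.50, adjusted p = 0.0483). Its adjusted p reached 0.296 under another change of processing. The median over all genes was 0.10 in this contrast, and the median of the 9 members was -0.41. Of the 8 genes for G2 and mitosis, 7 were called lower in it (median -1.10), and their part in the values of ODC1, AMD1 and SRM was not tested.

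A ratio of counts of a pair of genes in the same library does not depend on how libraries are scaled. ODC1 had 4.71, 5.22 and 5.55 counts per count of OAZ1 in the shNT libraries and 6.53, 6.70 and 8.20 in shNT_OHT. It had 4.49, 4.73 and 4.43 in the libraries labelled shCDK12 and 3.01, 2.81 and 2.71 in those labelled shCDK12_OHT. This ratio of newly made RNA, not of proteins, was thus higher in every shNT_OHT library than in any shNT library, by a mean of 0.47 on the log2 scale. It was lower in every library labelled shCDK12_OHT than in any labelled shCDK12, by a mean log2 difference of -0.68. ODC1 to SAT1, a synthesis gene over a breakdown gene, was 12.3 to 18.2 in shNT, 22.3 to 36.4 in shNT_OHT, 14.99 to 18.3 in the libraries labelled shCDK12 and 8.64 to 9.47 in those labelled shCDK12_OHT. Its log2 difference was 0.88 with OHT in shNT and -0.86 with OHT in the shCDK12 background, with no overlap in either. SRM to SMS was 1.78 to 3.31 in shNT_OHT and 1.19 to 1.34 in the libraries labelled shCDK12_OHT, a log2 difference of -1.01 with no overlap. The other contrasts of SRM to SMS overlapped, at 0.31 with OHT in shNT (exact p = 0.4), -0.44 for shCDK12 against shNT (exact p = 0.2) and -0.26 with OHT in shCDK12 (exact p = 0.5), as did those of shCDK12 against shNT for ODC1 to OAZ1 (-0.18, exact p = 0.2) and ODC1 to SAT1 (0.17, exact p = 0.4). Each of the non-overlapping contrasts reached an exact two-sided permutation p of 0.1, the smallest that 3 against 3 allows, which is 0.171 after adjustment over the 12 ratio tests.

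**Figure D3:**
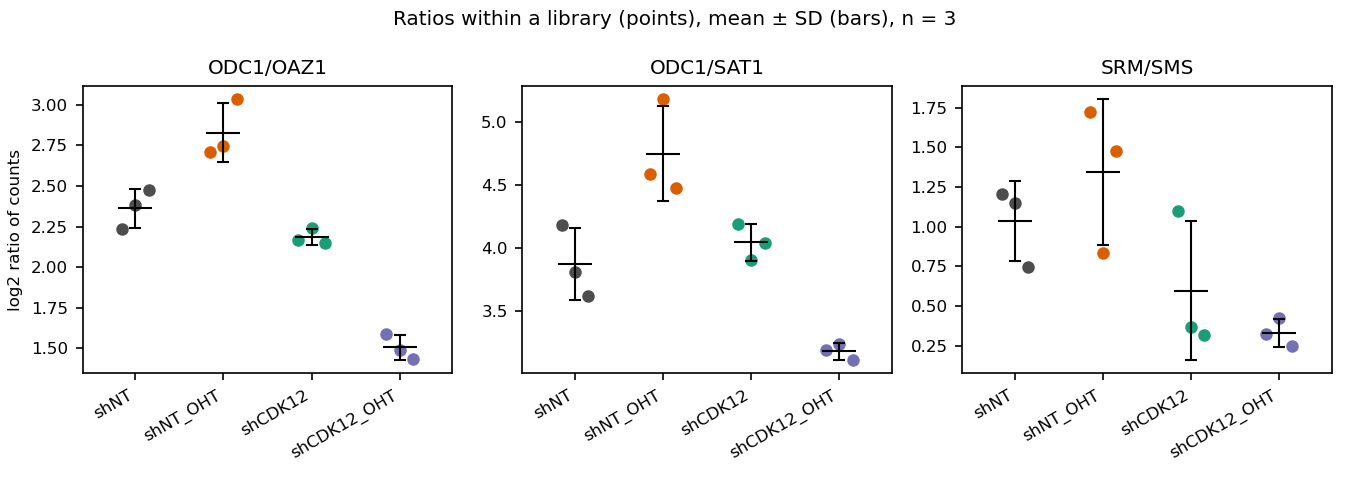
Log2 ratios of counts within each library (points, with bars at the mean ± SD, n = 3) for ODC1 to OAZ1, ODC1 to SAT1 and SRM to SMS in the 4 groups. The ODC1 to OAZ1 ratio is highest in shNT_OHT, at 2.71 to 3.04, and lowest in the libraries labelled shCDK12_OHT, at 1.44 to 1.59.

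The genes whose pattern over the 12 libraries was most like that of a member were looked up among 11698 others by Pearson's r of log2 CPM. For ODC1 they were RBM28 (r = 0.986), GTF3C4 (0.985) and TGIF1 (0.979). For SRM they were GPT2 (0.976), DESI1 (0.974) and GPATCH4 (0.966), and for SAT1 they were AMACR (0.983), MXD1 (0.979) and ADI1 (0.977). The 12 points fall into 4 groups and share each library's depth, so these values are descriptions.

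The genes that feed the pathway or use its products were listed in 6 groups of 43 names, of which 42 were in the table. With OHT in shNT, 7 of the 26 tested were higher and 1 was lower, beside the background of 17.3% called. EIF5A, the factor that is modified with hypusine made from spermidine, had 173, 176 and 179 CPM in shNT and 399, 287 and 338 CPM in shNT_OHT. Every shNT_OHT library was above every shNT library, at a log2 fold change of 0.96 (SE 0.13, adjusted p = 0.00031). It was the only 1 of 4 hypusine genes called. Its paralog EIF5A2 was at -0.56, with no overlap and just short of the threshold (adjusted p = 0.0521), and DHPS and DOHH were at 0.65 and 0.31, neither called. In the methionine cycle, which supplies S-adenosylmethionine, 3 of 6 tested were higher. These were AHCY, the hydrolase of S-adenosylhomocysteine, at 0.68 (adjusted p = 0.0039), MAT2A, the synthetase of S-adenosylmethionine, at 0.51 (adjusted p = 0.0107), and MTRR, a reductase that reactivates methionine synthase, at 0.41 (adjusted p = 0.0479). The calls of MAT2A and MTRR were lost without any 1 of the shNT libraries, at adjusted p-values of 0.0528 to 0.0669 and 0.130 to 0.185, and that of MTRR also without shNT_OHT replicate 3 (0.101). Of 6 ornithine supply genes tested, PYCR1, a proline synthesis enzyme, was the 1 called, at 0.70 (adjusted p = 0.0390), with shNT_OHT libraries at 175, 80.0 and 108 CPM. Without shNT_OHT replicate 1 it was at 0.37 (adjusted p = 0.0718), and the call was also lost without any 1 shNT library or without shNT_OHT replicate 3 (adjusted p from 0.0579 to 0.136).

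Among 5 polyamine transport genes tested in shNT, the amino acid transporters SLC3A2 (log2 0.67, adjusted p = 0.0013) and SLC7A1 (0.35, adjusted p = 0.0344) were higher. The SLC7A1 call was lost without any 1 shNT library or without shNT_OHT replicate 3, at adjusted p-values of 0.0537 to 0.146. CAV1, the caveolar coat protein, was lower with OHT in shNT, at 56.1, 114 and 92.5 CPM against 262, 260 and 193 CPM (log2 -1.49, SE 0.20, adjusted p = 0.00028). In MTA salvage, which recycles the by-product of both synthases, 0 of 4 were called by edgeR, 0 at an unadjusted p under 0.05 and 0 with DESeq2.

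In the shCDK12 background 9 of 29 listed genes tested were lower with OHT and 4 were higher, beside 21.5% of all genes lower and 27.5% higher. MAT2A had 699, 761 and 707 CPM without OHT and 377, 411 and 378 CPM with it in the libraries so labelled (log2 -0.89, adjusted p = 3.2e-08). EIF5A had 365, 343 and 401 CPM against 248, 221 and 199 CPM with OHT (-0.73, adjusted p = 2.7e-06). Both genes, like ODC1, were higher with OHT in shNT and lower with OHT in the shCDK12 background. Without OHT both were already higher in the libraries labelled shCDK12 than in shNT by edgeR. MAT2A was 2.01-fold higher (adjusted p = 3.6e-11) and EIF5A 2.10-fold (adjusted p = 1.3e-10). Mean levels in the libraries labelled shCDK12_OHT were 389 CPM for MAT2A and 223 for EIF5A, against 358 and 176 in shNT. The differences of response were -1.40 for MAT2A (adjusted p = 2.0e-07) and -1.69 for EIF5A (adjusted p = 1.0e-07). CAV1 went the other way in both backgrounds, with 29.9, 28.9 and 30.2 CPM without OHT and 89.7, 90.8 and 79.8 CPM with it in the libraries labelled shCDK12 and shCDK12_OHT (1.56, adjusted p = 2.7e-09). Over the 29 listed genes tested in the difference of responses, 11 were lower and 4 higher, beside the background of 19.6% and 25.6%.

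Without OHT, 9 of the 29 listed genes were higher and 9 lower in the libraries labelled shCDK12 than in shNT. With OHT in both, 6 were higher and 10 lower. The background shares for these 2 comparisons are the 62.0% and 45.4% given above.

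**Figure D4:**
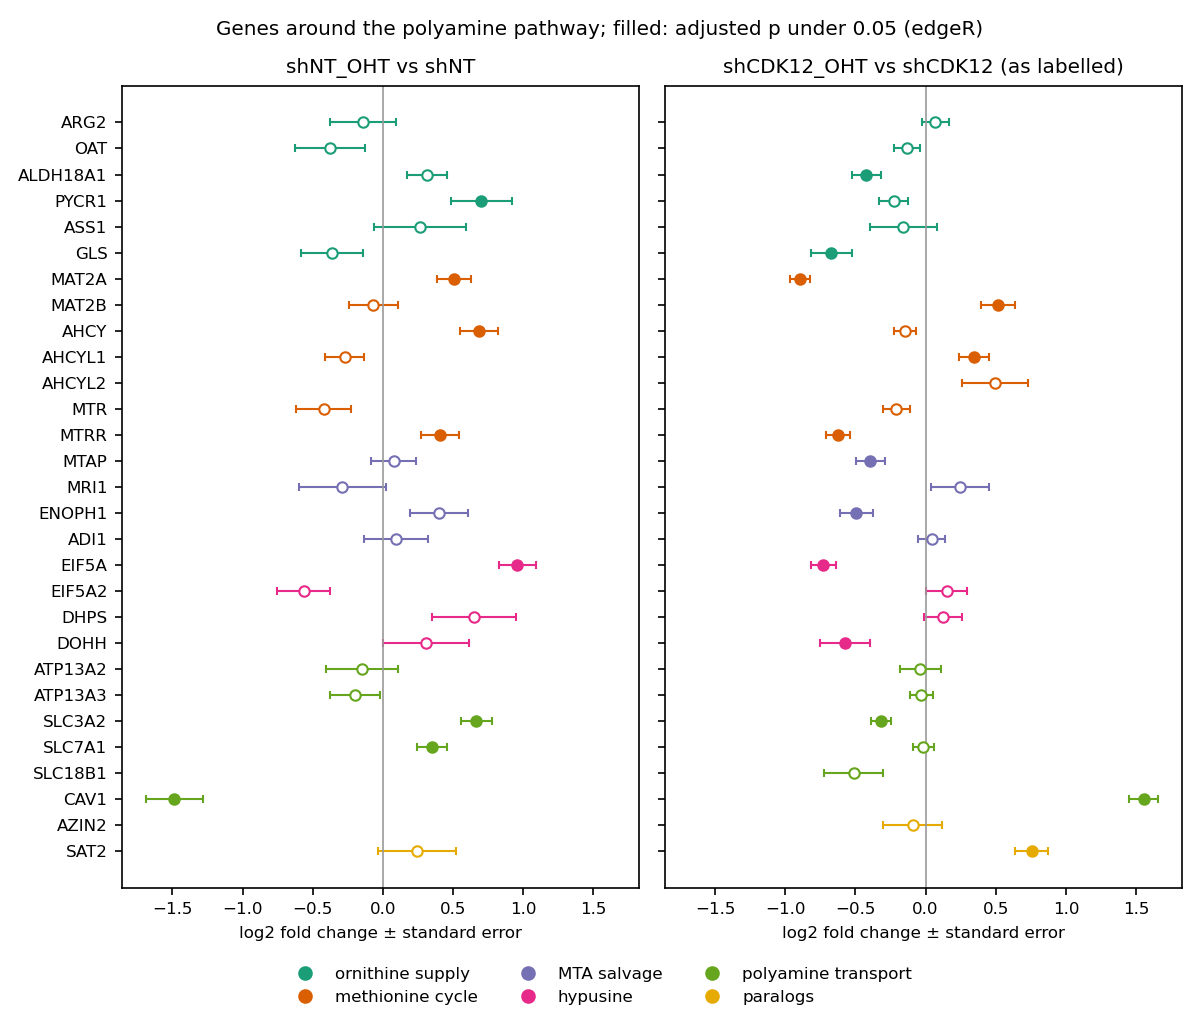
Log2 fold changes with OHT (horizontal axis, points with bars of 1 standard error) of the listed genes around the polyamine pathway in the shNT background (left) and in the libraries labelled shCDK12 (right), coloured by list and filled where the adjusted p was under 0.05 (edgeR). EIF5A lies at 0.96 on the left and at -0.73 on the right, and CAV1 lies at -1.49 and 1.56.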

How the data were processed

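EU-seq libraries of U2OS cells, 3 for each of 4 groups taken from the labels, were analysed. The authors deposited raw counts per gene for 23434 Entrez identifiers, without normalization. The submitters' processing notes name STAR 2.7.5c, featureCounts 1.4.5-p1 and hg19, while the strand setting, the gene model and the handling of mouse reads are not given in the sources used here. The labels give 40 µg of human and 10 µg of mouse RNA per capture. The table holds no mouse rows, so no scaling by mouse RNA was done, and a change in total newly made RNA cannot be seen. Symbols came from RefSeq (23284 rows matched, 150 rows without a symbol kept in the tests). SNORA80B lies within ODC1 and CDK19 overlaps AMD1. Their counts, 934 and 1325 over all libraries, compare with 46587 for ODC1 and 12562 for AMD1. Pseudogenes of AMD1 (4), SRM (3), SMS (1) and OAZ1 (1) have no row, so reads they share with the parent gene are uncertain.

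Counts were fitted with edgeR 4.0.16 in R 4.3.3 (TMM, quasi-likelihood test, Benjamini-Hochberg adjustment over all genes tested, adjusted p under 0.05), and a gene was tested where its normalized counts averaged more than 32 over the libraries compared. Pairwise comparisons used the 6 libraries of both groups and the difference of the OHT responses used all 12. SE is the log2 fold change over the square root of F. Intervals are nominally 95%, built from SE with a normal quantile, and are narrower than the F test itself would give. Alternatives were DESeq2 1.42.0, upper-quartile normalization, no filter, a replicate block, thinning to 1251695 counts, 1 fit of the 12 libraries together and dropping each library in turn. The named genes are the 10 members, CDK12, up to 3 called genes per list with the largest fold change with OHT in shNT and up to 2 with the largest difference of responses, and 3 genes of like pattern for ODC1, SRM and SAT1. The members and lists were chosen with earlier results of these data known. VIM, COL1A2, KRT8, EIF5A2, DHPS, MAT2B and AHCYL1 were named after their values were seen.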

Additional observations from a re-analysis of the deposited data

Results flagged for a closer look

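The difference between the OHT responses of the backgrounds was past the test's threshold (edgeR, all 12 libraries) for these named genes, given as the log2 response in the libraries labelled shCDK12 minus that in shNT. Among the polyamine genes it was -1.62 for ODC1, -1.16 for AMD1, -1.01 for SRM, -0.44 for OAZ1 and 0.56 for OAZ2. ODC1, AMD1 and SRM kept their calls without any 1 library, and OAZ1 and OAZ2 did not. The targeted gene CDK12 had -0.83. Of the genes listed under ornithine supply, PYCR1 had -0.94 and ALDH18A1 -0.74, and of those listed under the methionine cycle, AHCY had -0.83, MAT2A -1.40 and MTRR -1.03. Of MTA salvage, ENOPH1 had -0.89 and MTAP -0.47. Of the hypusine genes, EIF5A had -1.69 and DOHH, with only 17 to 93 counts per library in shNT_OHT, -0.91. Called the other way were EIF5A2 of this list (0.73, adjusted p = 0.0216) and, in the methionine cycle, MAT2B (0.60, 0.0224) and AHCYL1 (0.62, 0.0065). When 1 library was left out, the adjusted p rose to as much as 0.0766 for EIF5A2, 0.0712 for MAT2B and 0.0262 for AHCYL1. MTAP lost its call without any 1 of 9 libraries (adjusted p from 0.0503 to 0.0942) and DOHH without any 1 of 7 (0.0774 to 0.199). Of the transport genes, CAV1 had 3.05, SLC3A2 -0.99 and SLC7A1 -0.37, the last lost without shNT replicate 3 or shCDK12_OHT replicate 2 (adjusted p up to 0.0631).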

How the results depend on the processing

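Each value here is for 1 change of processing at a time. The count of genes called with OHT in shNT was 1782, moved to 3256 with 1 fit of all 12 libraries, and ranged from 670 to 2523 when 1 library was left out (751, 670 and 818 without shNT replicates 1, 2 and 3, and 1101 without shNT_OHT replicate 3). For shCDK12_OHT against shNT_OHT the 5298 ranged from 3520 to 6238 (3527 without shCDK12_OHT replicate 1, 3520 without replicate 2). Thinning to 1251695 counts, which leaves fewer genes to test, gave 4532 in place of 7265 for shCDK12 against shNT, 3129 in place of 5298 for shCDK12_OHT against shNT_OHT, 3286 in place of 6128 for OHT in shCDK12 and 3188 in place of 5289 for the difference of responses. The higher share of calls went from 56.6% to 47.2% in the difference of responses with upper-quartile normalization, which moved the median of all genes by -0.12, and from 52.2% to 61.5% with OHT in shNT after thinning. Fold changes near 0 changed sign, all uncalled: with upper-quartile normalization CDK12 (0.0145) and OAZ2 (0.0300) in shCDK12 against shNT and SAT1 (-0.107) in the difference of responses, where DESeq2 gave -0.0487, and after thinning SAT1 (0.0120) and SMOX (-0.0230) with OHT in shCDK12. When 1 library was left out, SAT1 spanned -0.250 to 0.121 with OHT in shNT, -0.105 to 0.247 in the difference of responses and -0.0878 to 0.0511 with OHT in shCDK12, where AZIN1 spanned -0.0203 to 0.188 and SMOX -0.0263 to 0.225. In shCDK12 against shNT, AZIN1 spanned -0.0493 to 0.126, OAZ2 -0.194 to 0.00646 and SMS -0.0801 to 0.329. What caused these moves was not tested. Of 68 results for single genes, 38 kept direction and side of the threshold under every alternative, 14 lost a call, 7 gained one and 9 changed sign. OAZ2 lost its calls after thinning (adjusted p = 0.0563 with OHT in shCDK12, 0.0922 against shNT_OHT and 0.120 in the difference of responses), as did SMOX against shNT_OHT (0.0832) and OAZ1 in the difference (0.110). Thinning also removed the calls of CDK12 with OHT in shNT (0.0776) and of MTAP in the difference (0.111). With no filter on low counts, MTAP lost its call in the difference (0.107) and MTRR with OHT in shNT (0.0778). The replicate numbers were not taken to pair the samples, since only 3 of 18 same-numbered pairs correlated above 0.1 (median 0.03, highest 0.32), with 0 of 36 differently numbered pairs above it. With a replicate block the counts were 1734, 7437, 4846, 6236 and 5385, MTRR lost its call with OHT in shNT (adjusted p = 0.0654) and AZIN1 gained one in shCDK12_OHT against shNT_OHT (0.0306). Every ratio of counts kept its sign under the alternatives run. The shallowest libraries were shNT_OHT replicate 2 (1251695 counts) and shNT replicate 3 (1928373), where PAOX had 0 and 1 counts, SMS 37 and 49, and SMOX 20 and 52.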
